A study of Homo sapiens with 22 samples.

Results

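The data described here are 4 RNA-seq libraries of MV-4-11 cells, 2 from cells given 1 µM BRM014 for 72 h and 2 from cells given the solvent, dimethyl sulfoxide (DMSO). They were picked by the line and treatment in their titles, and are 4 of the 22 libraries of a series on SWI/SNF inhibition in acute myeloid leukaemia lines. MV-4-11 is an established human monocytic leukaemia line that carries a KMT2A-AFF1 fusion and an internal tandem duplication in FLT3. Each library listed counts for 28063 gene symbols, of which 18633 had at least 1 read in 1 or more of the 4 libraries and 16794 passed the filter on low counts and were tested. Further groups served for comparison. They were MV-4-11 after 24 h of 1 µM BRM014, and the 72 h and DMSO groups of MOLM-13 (KMT2A-MLLT3 fusion, FLT3 duplication) and THP-1 (KMT2A-MLLT3 fusion), with 2 libraries in each group. All cells were unmodified and grew in RPMI with 10% serum, so every group shared its line's fusion, and each line stands for 1 leukaemia. The labels assign no culture time to the DMSO libraries, so exposure to BRM014 and time in culture cannot be told apart in the comparisons with DMSO. The same holds for longer exposure and longer culture between 24 h and 72 h of BRM014. They also do not tell whether replicates were separate cultures, and p-values therefore measure the spread between libraries, which may be technical.

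SWI/SNF complexes use the ATPases SMARCA4 (BRG1) or SMARCA2 (BRM) to slide and evict nucleosomes, which keeps enhancers open for transcription factors. BRM014 is an allosteric inhibitor of the ATPase activity of both. In myeloid leukaemia these complexes are known for holding open the enhancers of blood genes bound by PU.1 (gene SPI1) and of MYC, the factor that drives ribosome production and cell growth. Cells of this lineage can mature into granulocytes or into macrophages, which are rich in lysosomes, phagocytic receptors and inflammatory mediators.

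The 4 libraries held 17187766 to 20873372 reads in genes, and 13.1% to 14.3% of reads fell outside annotated genes. Replicates correlated across genes at r = 0.9935 for 72 h and 0.993 for DMSO (log2 of CPM, the reads of a gene scaled to a common library size). Their counts differed by more than counting noise, as chi-square divided by its degrees of freedom was 3.15 and 3.14. All 9 markers chosen for a myeloid leukaemia line had reads in all DMSO libraries, from 8.95 and 7.63 CPM for HOXA9 to 341 and 333 CPM for SPI1. Of the markers of other cell types, 5 of 18 erythroid and megakaryocyte genes were tested (1 rose, 2 fell), 13 of 15 lymphoid genes (0 rose, 6 fell), 8 of 12 basophil, eosinophil and mast cell genes (0 rose, 5 fell) and 7 of 11 epithelial and fibroblast genes (2 rose, 1 fell). Without DMSO replicate 2 the erythroid count was 1 higher and 0 lower, and without 72 h replicate 1 the basophil count was 0 and 3. With the MV-4-11 libraries alone, 2 erythroid, 7 lymphoid, 5 basophil and 4 epithelial genes passed the filter. The part of these lists in other results was not tested. Their summed levels were 18.8 to 19.1 CPM in DMSO and 46.2 to 49.0 CPM at 72 h for the erythroid list, of which the erythropoietin receptor gene EPOR made 15.4 and 13.99 and 44.1 and 47.3 CPM. For the lymphoid list they were 177 and 177 against 92.2 and 86.0 CPM, mostly CD4. For the basophil list the sums were 245 and 263 against 42.2 and 53.8 CPM, mostly PRG2 and GATA2, and for the epithelial list 17.1 and 15.6 against 36.5 and 36.9 CPM, mostly LUM. The defining genes HBB (erythroid), CD3D (T cells), CPA3 and FCER1A (mast cells), COL3A1 (fibroblasts) and KRT19 (epithelium) had 0 reads in all 6 MV-4-11 libraries, which allows up to 3 counts in a library. Of 20 housekeeping genes 7 rose and 10 fell, with a median log2 fold change of -0.20. In RNA from whole cultures, fewer cells of a type and less RNA per cell cannot be told apart. In the text, "rose", "fell", "higher" and "lower" stand for genes called at an adjusted p under 0.05 in edgeR's quasi-likelihood test. Fold changes are log2 values ± standard error with 2 libraries per group. The standard error comes from the test statistic, and for genes with few reads in a group it understates the error of the fold.

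After 72 h, 4771 genes were higher and 4382 lower than in DMSO, which is 28.4% and 26.1% of those tested. Counts of list members called at 72 h are to be read beside these shares. At least 2-fold, 2272 were higher (13.5%) and 1946 lower (11.6%). At least 8-fold, 503 were higher (3%) and 363 lower (2.16%). The median log2 fold change over all genes was 0.00 (0.04 over 12875 genes of at least 1 CPM in either group). The libraries of the groups did not overlap for 12807 genes (76.3%). The filter on low counts used all 22 libraries, so some genes tested have few or no reads in MV-4-11. With only the 4 libraries compared in the fit, 13502 genes were tested, 5084 of them higher and 5007 lower. These are larger shares, so 28.4% and 26.1% are a low background for lists of expressed genes. Of the 223 genes named in the text, 212 were called at 72 h against DMSO, with a largest adjusted p of 0.037 and, where both groups had reads, a largest standard error of 0.94.

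By the rule for named genes, which asks for at least 10 CPM in the higher group, the largest rise with reads in DMSO was that of CTTN (chr11:70398404-70436584). CTTN encodes the actin-binding protein cortactin. It measured 0.05596 and 0.391 CPM in the DMSO libraries, 89.9 and 97.1 CPM after 24 h and 142 and 143 CPM after 72 h, a log2 fold change of 9.20 ± 0.20 at 72 h. The gene was near the floor in both DMSO libraries and high in all treated ones. PTGDS (chr9:136975092-136981742), which encodes a prostaglandin D2 synthase, followed another course, with 0.336 and 0.0979 CPM in DMSO, 0.524 and 0.319 at 24 h and 103 and 104 at 72 h (8.91 ± 0.29). It was low in all 4 earlier libraries and high in the 72 h libraries alone. LCNL1, a lipocalin-like gene, had 0 reads in both DMSO and both 24 h libraries and 447 at 72 h, at least 153-fold higher than the 3 counts over the group that a 0 allows. HP, which encodes the haemoglobin-binding protein haptoglobin, had 2 reads in DMSO and 608 at 72 h, a ratio of 311 with an exact 95% interval of 85.8 to 2.58e+03 that covers counting error only. HP has a near-identical neighbour, HPR, and overlaps TXNL4B, so its value is uncertain.

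Other genes had large rises as well. NLRP12, an inhibitory NOD-like receptor gene of myeloid cells, went from 0.112 and 0.343 to 49.7 and 50.4 CPM (7.70 ± 0.19). DNASE2, which encodes the DNA-degrading enzyme of lysosomes, rose from 1.96 and 3.33 to 267 and 256 CPM (6.60 ± 0.16), and MCEMP1, a mast cell and monocyte membrane protein gene, from 6.94 and 7.88 to 634 and 631 CPM (6.41 ± 0.12). CHI3L1, which encodes the chitinase-like protein YKL-40 secreted by macrophages, fell first and rose later: it measured 2.01 and 1.37 CPM in DMSO, 0.157 and 0.228 at 24 h and 152 and 162 at 72 h (6.55 ± 0.12 against DMSO). HMOX1, which encodes the haem-degrading enzyme haem oxygenase 1, rose from 0.616 and 0.832 to 62.00 and 57.9 CPM (6.35 ± 0.26). DMPK, a muscle-type protein kinase gene, SYNPO, an actin-associated protein gene, and RHBDF1, an inactive rhomboid gene, rose by 7.20 ± 0.36, 6.49 ± 0.31 and 6.30 ± 0.23. The low DMSO counts made some of these folds less precise than their standard errors show. Without DMSO replicate 1 the values were 8.48 for CTTN, 9.96 for PTGDS and 8.01 for DMPK. Without DMSO replicate 2 they were 11.15 for CTTN, 8.24 for PTGDS, 8.72 for NLRP12 and 7.62 for SYNPO.

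Among genes of at least 10 CPM in DMSO, as the rule for named genes asks, CEACAM6 (chr19:41750977-41772208), which encodes a granulocyte adhesion glycoprotein, had the largest fall with reads in both 72 h libraries. It measured 206 and 213 CPM in DMSO, 8.02 and 8.896 at 24 h and 0.509 and 0.152 at 72 h (-9.32 ± 0.26). BPI, which encodes the bactericidal protein of neutrophil granules, went from 98.04 and 104 to 0.679 and 0.557 CPM (-7.34 ± 0.32), and ARMH1, an armadillo-like helical domain gene, from 179.9 and 170.3 to 1.13 and 1.22 CPM (-7.21 ± 0.23). Each had most of its fall behind it at 24 h, when BPI measured 5.66 and 5.61 and ARMH1 5.24 and 5.11 CPM. MS4A14, a gene of the MS4A membrane protein family, had 471 reads in DMSO and 0 at 72 h, at least 153-fold lower, but it overlaps MS4A7. PHACTR3, which encodes a phosphatase and actin regulator, fell from 97.5 and 99.9 to 0.735 and 0.354 CPM (-7.51 ± 0.21), and the lymphocyte receptor gene LY9 from 20.03 and 19.1 to 0.1697 and 0.0506 CPM (-7.43 ± 0.54). Without 72 h replicate 1 the values were -10.38 for CEACAM6, -8.11 for PHACTR3 and -8.43 for LY9. Without 72 h replicate 2, CEACAM6 stood at -8.67 and LY9 at -6.79. CACNA2D3, CCDC26, DCANP1 and ADD2, with 405 to 647 reads in DMSO, had 1 read each at 72 h, ratios of 0.00158 to 0.00253 with upper 95% bounds of 0.00885 to 0.0142. That read was in 1 library: without 72 h replicate 1 the fitted values were -11.31, -10.92, -7.63 and -7.54, and without replicate 2 they were -8.05, -7.67, -10.72 and -10.63. DCANP1 overlaps TIFAB.

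**Figure D1:**
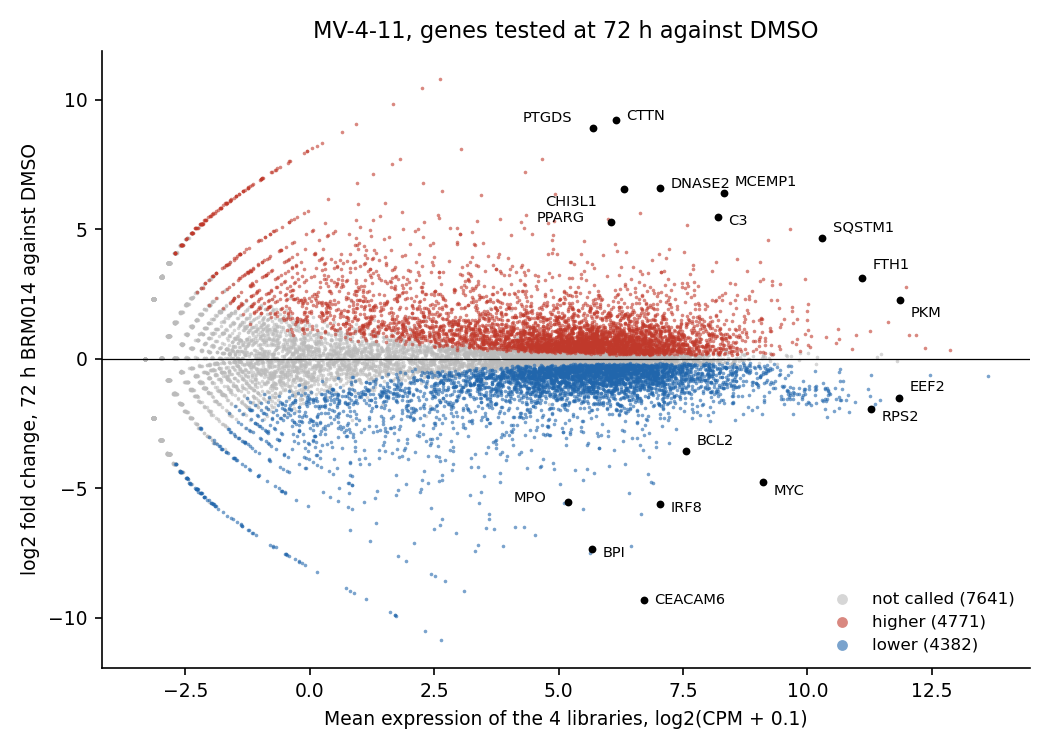
Log2 fold change of MV-4-11 cells at 72 h of BRM014 against DMSO (vertical axis) plotted over mean expression of the 4 libraries (horizontal axis, log2 of CPM + 0.1), 1 point per gene tested. Genes called higher are red, genes called lower blue and the others grey. CTTN stands at 9.20 and CEACAM6 at -9.32, and the curved outermost lines on the left are genes with 0 reads in 1 of the groups.

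The largest gains in CPM, a measure relative to the reads of each library, were those of MYH9, PKM, FTH1, P4HB, MSN, TMSB4X, SQSTM1 and ACTB. MYH9, which encodes non-muscle myosin heavy chain, went from 1011 and 1071 to 6984 and 7184 CPM (2.77 ± 0.06), PKM, the pyruvate kinase of glycolysis, from 1274 and 1288 to 5946 and 6402 (2.27 ± 0.09) and FTH1, the heavy chain of the iron store ferritin, from 441 and 464 to 3919.5 and 3979 (3.13 ± 0.11). The largest losses were those of EEF1A1, EEF2, GAPDH, RPS2, PABPC1, HSP90AB1, RPL3 and RNR2. EEF1A1, an elongation factor that brings transfer RNA to the ribosome, went from 15272 and 15778 to 9677 and 9785 CPM (-0.67 ± 0.07), and GAPDH, an enzyme of glycolysis, from 5292 and 5546 to 1997 and 2004 (-1.44 ± 0.11). EEF2, the elongation factor that moves the ribosome along the message, fell from 5315 and 5503 to 1886 and 1948 CPM (-1.50 ± 0.10), PABPC1, the poly(A)-binding protein, from 4016 and 3977 to 1103 and 1088 (-1.87 ± 0.07) and RPS2, a small ribosomal subunit protein gene, from 3917 and 3974 to 1051 and 1030.5 (-1.92 ± 0.15).

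The genes of both inhibited ATPases fell. SMARCA4 measured 278 and 279.6 CPM in DMSO, 289 and 311 at 24 h and 212 and 215 at 72 h (-0.39 ± 0.07), and SMARCA2 182 and 184, 147 and 146 and 108 and 109 CPM (-0.75 ± 0.06). For both genes the 72 h libraries lay below the DMSO and the 24 h libraries. Of 27 subunit genes tested, 13 rose, 6 fell and 8 were not called, with a median of 0.32. Of the core subunits, SMARCC1 and SMARCD2 fell (-1.08 ± 0.07 and -1.04 ± 0.08) while SMARCD3, the subunit linked to muscle and heart cells, rose from 2.57 and 1.96 to 7.75 and 8.405 CPM (1.84 ± 0.19). ARID1A of the cBAF complex, ARID2 of PBAF and BICRAL of ncBAF rose by 0.95 ± 0.12, 1.12 ± 0.11 and 0.95 ± 0.10. The effect on SMARCA2 was lower than in MOLM-13 (a difference of -0.76 ± 0.09) and in THP-1 (-0.32 ± 0.08).

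Blood transcription factors moved in both directions, with 9 of 26 tested higher, 11 lower and a median of 0.00. SPI1, which encodes PU.1, the main factor of myeloid identity, measured 341 and 333 CPM in DMSO, 85.7 and 83.5 at 24 h and 189 and 176 at 72 h. It fell by 0.89 ± 0.11 against DMSO and was higher at 72 h than at 24 h by 1.11 ± 0.12, so its lowest libraries were those of 24 h. IRF8, the partner of PU.1 in monocyte and dendritic cell development, went from 252 and 266 to 24.02 and 21.5 at 24 h and 5.26 and 5.37 CPM at 72 h (-5.61 ± 0.12). The fall exceeded that in MOLM-13 (a difference of -1.79 ± 0.15) and in THP-1 (-3.57 ± 0.14). CEBPE, a factor of late granulocyte maturation, fell from 103 and 102 to 12.7 and 13.7 CPM (-2.96 ± 0.22).

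Of 5 granulocyte factors tested 4 rose and 1 fell. Of 9 monocyte and dendritic cell factors only 2 rose and 4 fell, with a median of -0.03. KLF4, which promotes monocyte differentiation, went from 3.69 and 4.35 to 34.9 and 31.8 CPM (3.04 ± 0.16) and ID2, an inhibitor of E-proteins, from 2.97 and 3.28 to 31.5 and 32.6 CPM (3.35 ± 0.11). ID2 fell in MOLM-13 (-0.95 ± 0.09), and the difference between the lines was 4.30 ± 0.14. The C/EBP genes CEBPA, CEBPB and CEBPD rose by 1.03 ± 0.10, 1.61 ± 0.16 and 1.54 ± 0.13. RUNX1, a core blood factor, rose by 0.63 ± 0.07, while MYB, a factor of progenitor growth, and FLI1, an ETS factor, fell (-0.51 ± 0.07 and -1.13 ± 0.08).

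The genes known as targets of KMT2A fusions showed no common direction: of 21 tested, 5 rose and 6 fell, with a median of -0.10. These counts lay near the shares over all genes, 28.4% and 26.1%. HOXA9, the best known of them, was not called (8.95 and 7.63 CPM in DMSO and 9.33 and 10.99 at 72 h, 0.30 ± 0.20, adjusted p = 0.22) and overlaps HOXA10. Its cofactor MEIS1 fell from 31.2 and 35.8 to 15.95 and 14.02 CPM (-1.16 ± 0.16), and FLT3, the receptor kinase gene, rose slightly (0.24 ± 0.06). BCL2, which encodes the survival protein targeted by venetoclax, went from 348 and 348 CPM to 137 and 139 at 24 h and 30.8 and 28.4 at 72 h (-3.56 ± 0.08). ZNF521, a zinc finger gene of haematopoietic progenitors, measured 72.02 and 76.9 CPM in DMSO and 70.4 and 75.3 at 24 h and fell to 14.6 and 13.6 CPM at 72 h (-2.40 ± 0.09), with differences of -2.19 ± 0.12 from MOLM-13 and -2.54 ± 0.12 from THP-1.

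**Figure D2:**
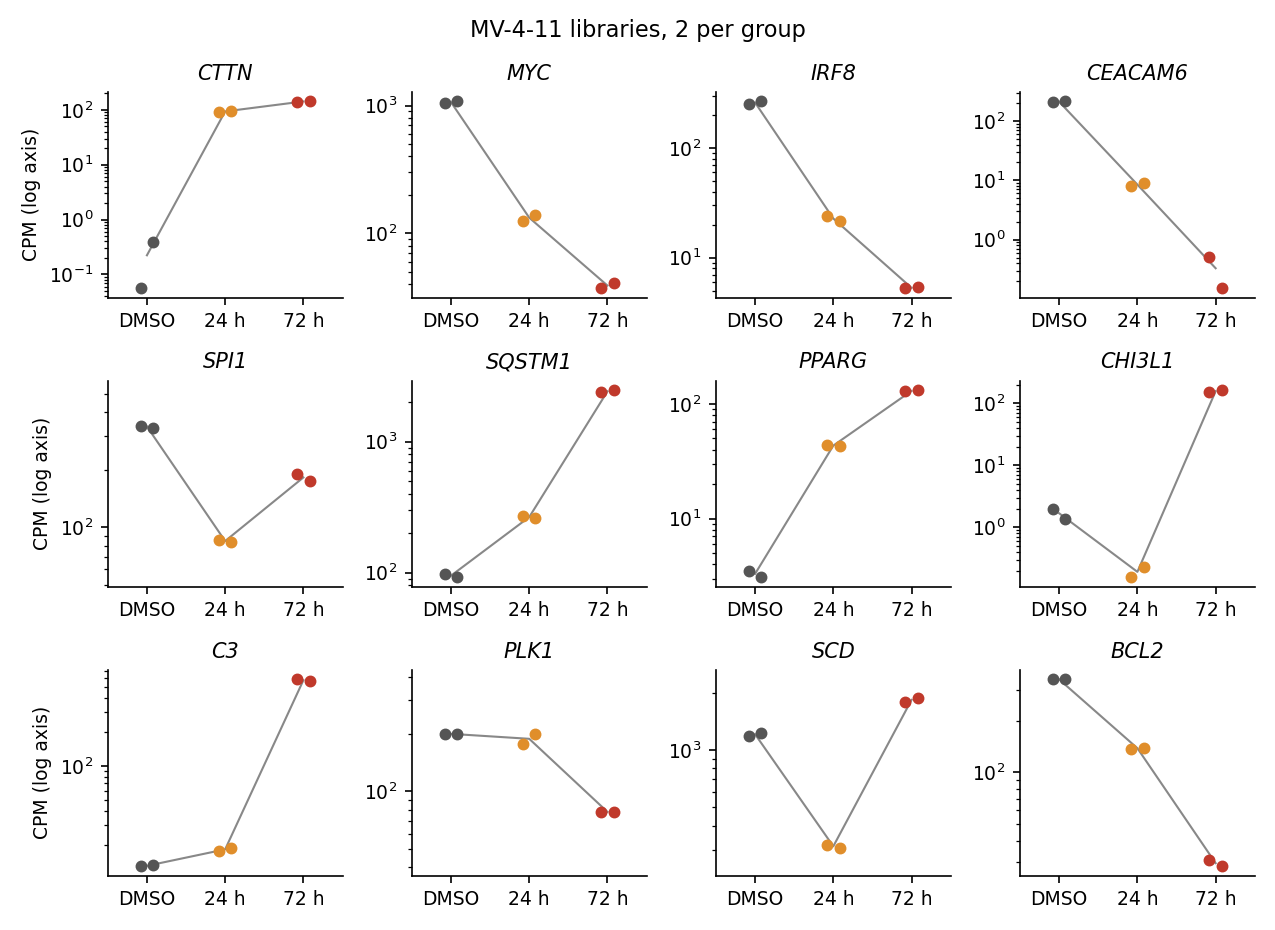
CPM of 12 genes in the 6 MV-4-11 libraries, DMSO, 24 h and 72 h of BRM014, on log axes; points are libraries and lines join group means. MYC, IRF8 and CEACAM6 fall at each step, SPI1 is lowest at 24 h, and CHI3L1 and C3 are highest at 72 h.

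Granule genes fell in larger number than they rose. Of 18 granule protein genes tested, 11 fell and 2 rose, and of 6 subunits of the phagocyte NADPH oxidase 4 rose and 2 fell. MPO, the myeloperoxidase of azurophil granules, measured 72.1 and 69.9 CPM in DMSO and 1.19 and 1.87 at 72 h (-5.51 ± 0.24). PRG2, the major basic protein gene of eosinophils, held 190.0 and 205 CPM in DMSO, 70.2 and 74.6 at 24 h and 2.55 and 3.65 at 72 h (-5.98 ± 0.15), and RNASE3, the eosinophil cationic protein gene, fell by 4.19 ± 0.21. The calprotectin genes came back: S100A8 measured 72.9 and 69.5 CPM in DMSO, 5.82 and 5.89 at 24 h and 46.05 and 51.9 at 72 h (-0.54 ± 0.14), and S100A9 272 and 278, 32.9 and 33.9 and 316 and 309 CPM (0.18 ± 0.13, not called). For S100A9 only the 24 h libraries stood below DMSO. The oxidase subunits went apart, as CYBB, the membrane catalytic subunit, fell from 151 and 155 to 10.1 and 8.405 CPM (-4.05 ± 0.15) and NCF1, a cytosolic subunit, rose from 30.6 and 32.7 to 415 and 359 CPM (3.61 ± 0.14). NCF1 has near-identical pseudogene copies, so its count is uncertain.

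Over all genes tested, 28.4% rose and 26.1% fell. Of 40 receptor genes of macrophages tested, 14 rose and 15 fell, and of 22 integrin and adhesion genes 11 rose and 8 fell. Of 10 growth factor receptor genes 5 rose and 3 fell, and of 10 MHC class II genes tested 1 rose and 3 fell, which became 0 and 2 without 72 h replicate 1 or without DMSO replicate 2. Of the 16 class II genes listed, 9 and 8 had 0 reads in the DMSO libraries and 7 and 10 at 72 h. With the MV-4-11 libraries alone, 4 class II and 29 macrophage receptor genes passed the filter. Some genes tested but not called were therefore nearly absent from this line. Among Toll-like receptor genes and their partners 2 of 11 rose and 6 fell. TLR4, the endotoxin receptor, went from 27.1 and 26.96 to 0.792 and 1.67 CPM (-4.43 ± 0.25; -5.08 without 72 h replicate 2) and BTK, a kinase downstream of such receptors, from 189.9 and 191 to 17.5 and 15.7 CPM (-3.52 ± 0.09). These 2 were the members of the macrophage receptor list with the PU.1 core GAGGAAGT, on either strand, in their promoter, 2 of 28 members with a promoter sequence (7.14%) against 2.54% of all 27305 promoters and 2.69% of those of tested genes. The BTK promoter is shown as an example, with the match, which lies on the other strand, in capitals (RefSeq, GRCh38.p14, chrX:101390797-101390876, minus strand, ending before the transcription start).

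BTK: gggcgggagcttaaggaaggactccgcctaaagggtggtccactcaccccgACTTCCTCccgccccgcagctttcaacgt

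CD33, the sialic acid receptor used as a leukaemia target, fell from 58.3 and 64.8 to 10.5 and 13.3 CPM (-2.37 ± 0.11) and the integrin subunit genes ITGAX and ITGAL fell by 3.19 ± 0.25 and 1.86 ± 0.07. CD74, the chaperone of MHC class II, went from 223 and 225 to 7.64 and 8.96 CPM (-4.75 ± 0.11), and CTSS, the protease that processes it, from 75.2 and 78.5 to 4.41 and 3.44 CPM (-4.30 ± 0.13). The inhibitory receptor gene LILRB1 fell by 5.01 ± 0.71 (log2 fold changes of -6.38 and -4.28 without 72 h replicates 1 and 2), and the growth factor receptor genes CSF3R and CSF2RB fell by 2.09 ± 0.07 and 2.12 ± 0.14. In the other direction, ICAM3, an adhesion molecule gene of leukocytes, rose from 7.39 and 9.54 to 102 and 89.3 CPM (3.49 ± 0.14). The Src family kinase gene FGR rose by 2.17 ± 0.10, MERTK, a receptor for the uptake of dead cells, by 3.73 ± 0.28, CD68, a lysosomal marker of macrophages, by 1.63 ± 0.07, and IFNGR2, a subunit of the interferon-gamma receptor, by 2.38 ± 0.23. FGR had been below DMSO at 24 h (-0.87 ± 0.10).

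MYC and most genes that build ribosomes fell. MYC (chr8:127735434-127741434) measured 1049 and 1080.5 CPM in DMSO, 126 and 139 at 24 h and 37.1 and 40.8 at 72 h (-4.77 ± 0.09), with each time below the one before. Its fall was smaller than in MOLM-13 (a difference of 1.64 ± 0.12) and larger than in THP-1 (-0.84 ± 0.12). Of 34 genes of MYC and ribosome biogenesis tested, 28 fell and 5 rose, with a median of -1.21. FBL, which methylates ribosomal RNA, fell from 374 and 379.7 to 78.2 and 88.1 CPM (-2.18 ± 0.15), and the nucleolar protein genes NOLC1, NPM1 and NCL fell by 2.06 ± 0.07, 1.61 ± 0.07 and 1.21 ± 0.07. The risers included MXD1, MXD4 and MNT (2.58 ± 0.13, 0.97 ± 0.11 and 1.04 ± 0.10), which encode proteins that compete with MYC for its partner MAX. The E-box CACGTG that MYC and MAX bind was in 11 of 28 promoters of the list (39.3%). The shares were 7.43% of all promoters and 9.66% of those of tested genes. By direction, the E-box was in 9 of 22 promoters of members that fell and 2 of 5 of those that rose, MXD4 and MNT.

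All 34 cytosolic ribosomal protein genes tested fell, by -2.06 to -0.91, with a median of -1.40. At 24 h 31 of them were lower than in DMSO. Of 24 glycolysis genes, 19 fell and 3 rose, with a median of -1.15. The falls included LDHA, the lactate dehydrogenase gene (-2.15 ± 0.09), PGK1, a kinase of the pathway (-1.74 ± 0.07), the hexokinase gene HK2 (-2.61 ± 0.11) and PFKFB4, which sets the speed of the pathway (-3.33 ± 0.13). PKM and the carriers SLC2A3 and SLC16A3 were the 3 that rose. SLC2A3, a glucose importer gene, went from 42.6 and 49.8 to 312 and 312 CPM (2.76 ± 0.10) although it fell in MOLM-13 (-1.52 ± 0.09) and in THP-1 (-1.12 ± 0.21). SLC16A3, the lactate exporter gene, rose by 1.51 ± 0.13.

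Of 31 nuclear genes of the respiratory chain, 18 fell and 3 rose, with a median of -0.32. Of 13 chaperone genes of the cytosol and mitochondria 8 fell and 3 rose, and of 12 of the endoplasmic reticulum 7 rose and 3 fell, a difference that was not tested. The falls included the mitochondrial HSPD1 (869 and 897 to 206 and 198 CPM, -2.13 ± 0.08) and TRAP1 (-1.83 ± 0.08). The rises in the endoplasmic reticulum were led by XBP1, the factor of the unfolded protein response, which measured 206 and 209.8 CPM in DMSO, 1582 and 1618 at 24 h and 1745 and 1796 at 72 h (3.09 ± 0.08). Of 31 proteasome subunit genes 11 rose and 10 fell, none by more than -0.49 or 0.43.

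Genes of DNA replication and mitosis fell late. Of 32 replication genes tested 31 fell and 1 rose at 72 h, with a median of -1.08, and of 23 mitosis genes 22 fell and none rose, with a median of -0.95. At 24 h, against 23.6% of all genes higher and 22.4% lower, 13 replication genes were lower and 6 higher, and 2 mitosis genes were lower and 9 higher. Between 24 h and 72 h, all 32 replication genes and all 23 mitosis genes fell. The same DMSO libraries stand behind both comparisons with DMSO, but not behind that between the times. PLK1, a mitotic kinase, measured 199.8 and 200.4 CPM in DMSO, 177 and 200.0 at 24 h and 77.95 and 77.9 at 72 h (-1.36 ± 0.07). Its 24 h libraries lay at or near the DMSO level and its 72 h libraries well below.

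AURKB, another mitotic kinase gene, fell by 1.62 ± 0.13, BUB1B, of the spindle checkpoint, by 1.47 ± 0.09 and the kinesin gene KIF20A by 1.33 ± 0.08. MKI67, the proliferation marker, was the mitosis gene not called (376 and 368 CPM in DMSO and 334 and 316 at 72 h, -0.20 ± 0.09). In replication, ORC1 of the origin recognition complex fell by 1.96 ± 0.10, the helicase genes MCM2, MCM3 and MCM6 by 1.61 ± 0.09, 1.66 ± 0.06 and 1.07 ± 0.07, and the clamp loader gene RFC3 by 1.67 ± 0.10. RRM2, a subunit of the enzyme that makes deoxynucleotides, was the one that rose (0.82 ± 0.07).

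Promoters of these genes carry known cell cycle elements, shown here because the members moved together. The CHR element TTTGAA (either strand) was found in 11 of 17 mitosis promoters from RefSeq (64.7%) and in 15.4% of all 27305 promoters (10.5% of the 12176 of tested genes), which run from 250 bases before to 50 after the start. Of the 11, 10 belonged to genes that fell, as did 16 of the 17. The E2F site TTTGGCGC was in 6 of 29 replication promoters (20.7%) against 0.659% of all and 1.05% of tested, and its variant TTTCCCGC in 9 of 29 (31%) against 1.66% and 2.49%. Of the 29 genes 28 fell. A match is a description of these letters, and no binding was measured. In the stretches below, all upstream of the start on GRCh38.p14, capitals mark the match: PLK1 at chr16:23678809-23678888 (plus strand), BUB1B at chr15:40160989-40161068 (plus strand) and MCM6 at chr2:135876490-135876569 (minus strand).

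PLK1: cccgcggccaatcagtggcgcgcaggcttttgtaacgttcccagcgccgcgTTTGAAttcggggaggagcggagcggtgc
BUB1B: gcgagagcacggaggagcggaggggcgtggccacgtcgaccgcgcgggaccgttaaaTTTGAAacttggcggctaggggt
MCM6: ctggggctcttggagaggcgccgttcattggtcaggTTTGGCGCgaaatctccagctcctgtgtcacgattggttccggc

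Of 7 cell cycle inhibitor genes tested 3 rose and 4 were not called, and of 10 G1 cyclin and kinase genes 4 rose and 4 fell. CDKN1A, which encodes the inhibitor p21, measured 31.8 and 37.7 CPM in DMSO, 162 and 164 at 24 h and 243 and 252 at 72 h (2.83 ± 0.09). The inhibitor genes CDKN2C (p18) and CDKN2D (p19) rose by 2.12 ± 0.10 and 2.25 ± 0.16, and the cyclin D1 gene CCND1 by 2.42 ± 0.12. CCND2, another D cyclin, had 46 reads in DMSO and 1 at 72 h, a ratio of 0.0223 (95% interval 0.000551 to 0.13), with fitted values of -4.40 without 72 h replicate 1 and -7.49 without replicate 2. CDKN1A fell in MOLM-13 (-0.47 ± 0.08) and rose more in THP-1 (4.05 ± 0.09), and both differences from MV-4-11 were called (3.30 ± 0.12 and -1.22 ± 0.12).

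Of 24 p53 target genes tested, 13 rose and 6 fell, with a median of 0.50. BTG2, an anti-proliferative gene, went from 17.9 and 18.4 CPM in DMSO to 57.4 and 68.9 at 24 h and 275 and 261 at 72 h (3.88 ± 0.17), and GDF15, a stress cytokine gene, rose by 3.91 ± 0.46 from 0.05596 and 0.587 CPM (3.12 and 6.37 without DMSO replicates 1 and 2). TP53I3 and TP53INP1 rose by 3.24 ± 0.16 and 2.79 ± 0.15, and CCNG1 fell by 1.63 ± 0.08. In the BCL2 family, 6 of 17 rose and 5 fell, near the 28.4% and 26.1% of all genes. Opposite to BCL2 moved the survival genes MCL1 (213 and 214 CPM in DMSO and 1041 and 1005 at 72 h, 2.26 ± 0.07) and BCL2L1 (1.55 ± 0.16), while the BH3-only gene BBC3 (PUMA) rose by 1.40 ± 0.13 and BNIP3 fell by 2.85 ± 0.17.

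Most lysosome and autophagy genes rose. Of 64 tested 55 rose and 6 fell at 72 h, with a median of 1.20, against 28.4% and 26.1% of all genes. The V-ATPase proton pump genes rose in 12 of 12 cases, autophagy genes in 11 of 11, membrane proteins and activators in 11 of 12 and enzymes in 18 of 25. At 24 h 33 of the 64 were higher and 14 lower than in DMSO. From 24 h to 72 h, 53 rose and 2 fell, against 18.6% and 16.9% of all genes. SQSTM1 (chr5:179806398-179838078), the autophagy receptor p62, measured 97.3 and 91.9 CPM in DMSO, 269.6 and 261 at 24 h and 2383 and 2468 at 72 h (4.68 ± 0.09), and rose at each step. The rise exceeded that in MOLM-13 by 1.54 ± 0.11 and that in THP-1 by 3.46 ± 0.11.

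MCOLN1, the calcium channel of lysosomes, went from 18.6 and 15.7 to 178 and 184 CPM (3.41 ± 0.13). Among cathepsins, CTSL rose from 47.4 and 49.2 to 368 and 379 CPM (2.95 ± 0.08), CTSD from 173 and 175 to 817 and 820.5 (2.23 ± 0.09) and CTSB by 2.28 ± 0.07. GRN, which encodes the lysosomal protein progranulin, rose from 444 and 441 to 1617 and 1574 CPM (1.85 ± 0.07). Autophagy genes that rose included OPTN and GABARAPL1, which link cargo to the forming vesicle (3.67 ± 0.16 and 2.62 ± 0.13), and the starting kinase ULK1 (2.47 ± 0.09). TFE3 and TFEB, the factors that switch on lysosome genes, rose by 1.66 ± 0.08 and 0.80 ± 0.15. The 6 that fell, named for completeness, were CTSS, above, MAN2B1 (-1.03 ± 0.07), GLA (-0.78 ± 0.10), GUSB (-0.51 ± 0.09), LGMN (12 reads in DMSO and 0 at 72 h, at least 3.91-fold lower) and the receptor gene M6PR (-0.19 ± 0.07). M6PR was not called once any of the 4 libraries was left out.

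TFEB and TFE3 bind the CLEAR element TCACGTGA, a palindrome that contains the E-box above. It was present in 5 of 47 lysosome and autophagy promoters in the RefSeq table (10.6%) against 1.04% of all promoters and 1.72% of those of tested genes. The 5 genes, CTSA, GAA, LAMP1, MCOLN1 and ATP6V0D1, all rose, as did 41 of the 47 members with a promoter. CTSA, a carboxypeptidase, rose from 124 and 129 to 561 and 576 CPM (2.17 ± 0.08), and GAA, the acid glucosidase, from 76.8 and 84.1 to 184 and 175 (1.15 ± 0.09). Each stretch ends before the start of the gene on the plus strand of GRCh38.p14, with the element in capitals: MCOLN1 at chr19:7522544-7522623 and GAA at chr17:80101501-80101580, both with 2 copies, and CTSA at chr20:45891255-45891334.

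MCOLN1: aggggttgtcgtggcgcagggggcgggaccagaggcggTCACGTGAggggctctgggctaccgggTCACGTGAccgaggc
GAA: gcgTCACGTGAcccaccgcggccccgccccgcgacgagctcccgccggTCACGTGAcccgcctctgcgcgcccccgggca
CTSA: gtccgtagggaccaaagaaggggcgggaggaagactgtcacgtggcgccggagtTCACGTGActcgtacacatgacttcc

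**Figure D3:**
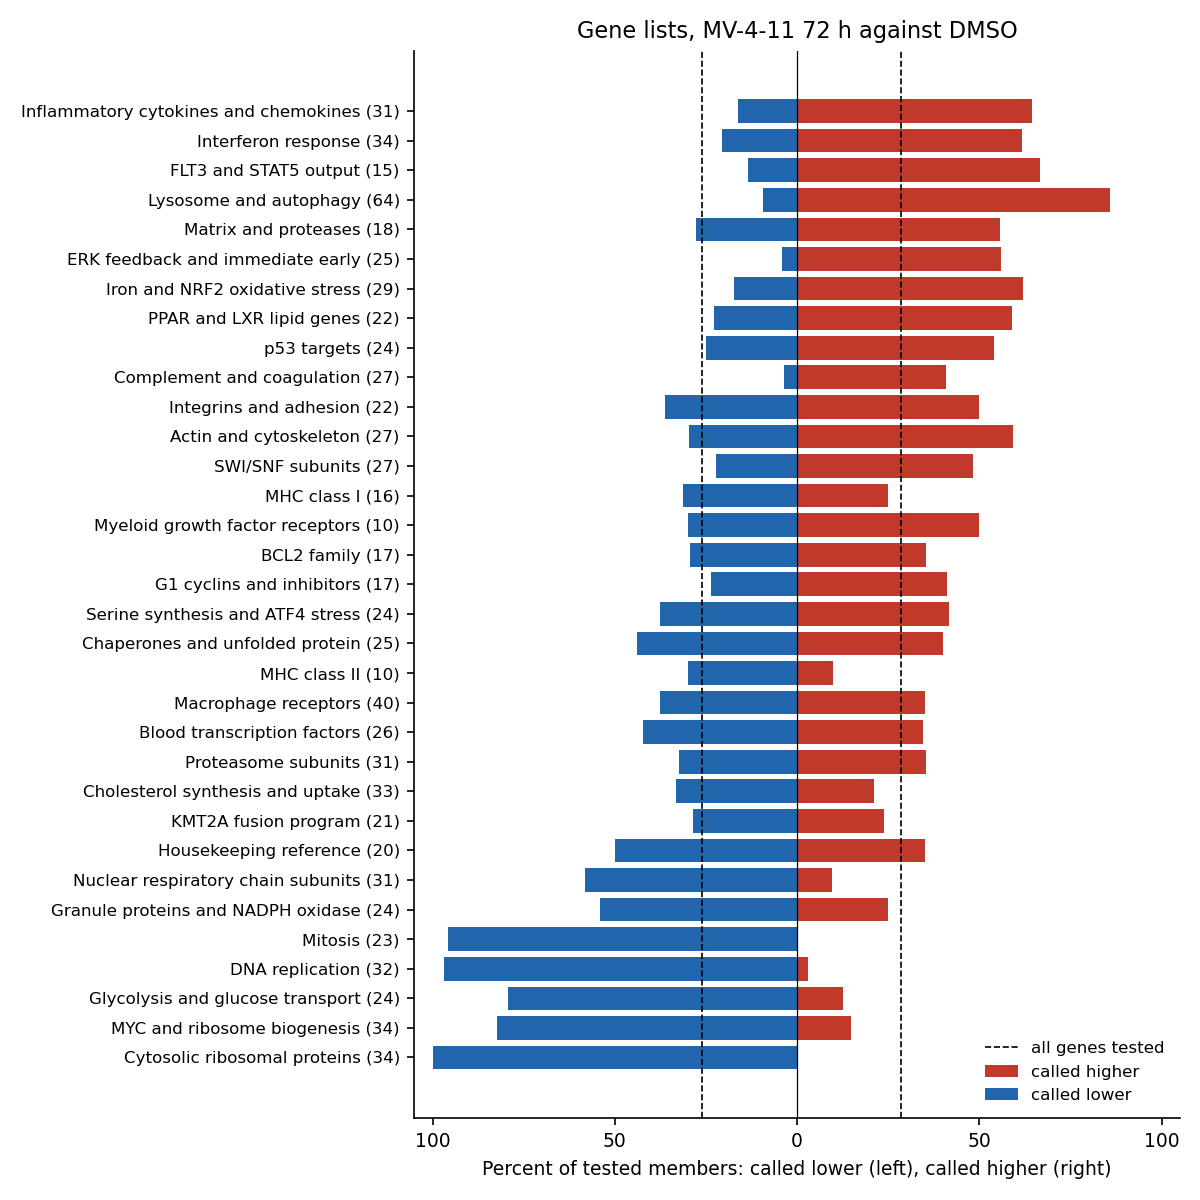
Share of tested members called higher (red, to the right) and lower (blue, to the left) at 72 h against DMSO in MV-4-11, for 33 gene lists ordered by median log2 fold change, with the number tested in brackets. Dashed lines mark 28.4% and 26.1%, the shares over all genes tested; ribosomal protein genes reach 100% lower and the lysosome list stands at 55 of 64 higher.

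Of 22 PPAR and LXR lipid genes 13 rose and 5 fell. PPARG (chr3:12287368-12434356), a nuclear receptor that drives lipid handling in macrophages, measured 3.53 and 3.08 CPM in DMSO, 43.5 and 43.2 at 24 h and 128 and 131 at 72 h (5.30 ± 0.12). All 6 receptor genes of the PPAR and LXR list rose, and of 16 targets 7 rose and 5 fell. The cholesterol exporter gene ABCA1 went from 30.4 and 34.6 to 201 and 211 CPM (2.66 ± 0.14) and the lipid droplet gene PLIN2 from 90.3 and 103 to 504 and 504 CPM (2.38 ± 0.09), while LPL, the lipoprotein lipase gene, and FABP5, a fatty acid carrier gene, fell (-3.26 ± 0.08 and -3.34 ± 0.12). Of 29 iron and NRF2 genes 18 rose and 5 fell, with a median of 0.83. NFE2L2, which encodes NRF2, rose by 2.45 ± 0.12 and its target NQO1 from 20.9 and 21.9 to 88.99 and 95.4 CPM (2.11 ± 0.08), after 138 and 148 CPM at 24 h. FTL, the light chain of ferritin, was not called (0.07 ± 0.10), unlike the heavy chain FTH1 above. STEAP3, an iron reductase gene, fell by 2.19 ± 0.19.

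Cholesterol and fatty acid synthesis genes were low at 24 h and back near the DMSO level at 72 h. Of 33 tested, 26 were lower and none higher at 24 h, whereas at 72 h 11 were lower and 7 higher, with a median of -0.05. From 24 h to 72 h, 27 rose and none fell. SCD, the desaturase that makes oleate, measured 1188 and 1231 CPM in DMSO, 318 and 307 at 24 h and 1788 and 1875 at 72 h (0.60 ± 0.07 against DMSO), above DMSO in both 72 h libraries. HMGCS1, an early enzyme of cholesterol synthesis, measured 210.2 and 206, 90.5 and 84.9 and 183 and 178 CPM (-0.20 ± 0.09, not called). FASN, the fatty acid synthase gene, stayed lower, at 1083 and 1087 CPM in DMSO, 284 and 304 at 24 h and 503 and 527 at 72 h (-1.07 ± 0.07), as did ELOVL6, a fatty acid elongase gene (-1.28 ± 0.17).

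The 72 h response of these genes differed between the lines. Against MOLM-13, 29 of the 33 had a higher 72 h effect in MV-4-11 and 1 a lower one, where 20.8% and 15% of all genes did; against THP-1 the counts were 26 and 1, where 19.9% and 16.5% did. SCD fell in MOLM-13 (-3.85 ± 0.08) and THP-1 (-1.28 ± 0.07), which leaves differences of 4.45 ± 0.10 and 1.88 ± 0.10. For FADS2, a desaturase gene of long-chain fatty acids, the effect was 0.10 ± 0.10 in MV-4-11, not called, -5.88 ± 0.13 in MOLM-13 and -3.56 ± 0.13 in THP-1. The sterol regulatory element TCACNCCAC was in 1 of 26 promoters of the list (3.85%) against 1.15% of all and 1.13% of tested.

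**Figure D4:**
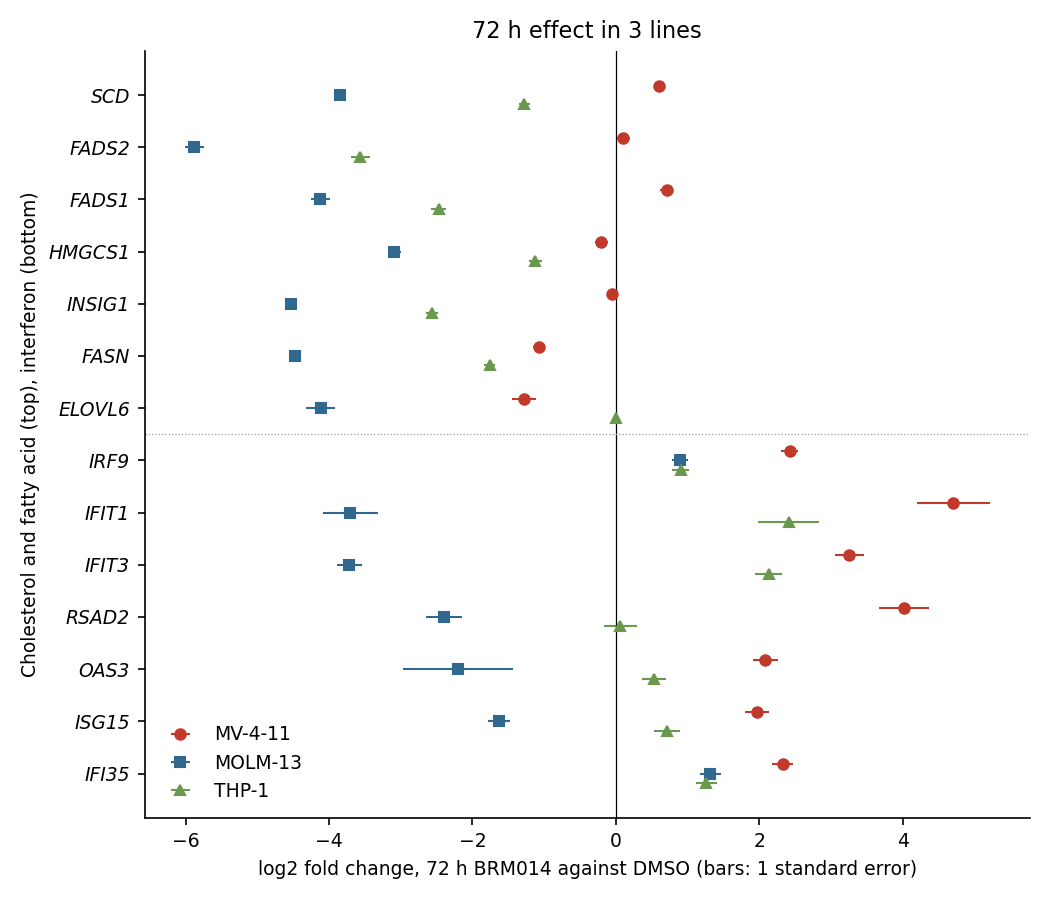
Log2 fold change of BRM014 at 72 h against DMSO in MV-4-11, MOLM-13 and THP-1 for 7 cholesterol and fatty acid genes and 7 interferon-stimulated genes, with bars of 1 standard error. The MV-4-11 points lie to the right of the MOLM-13 points for all 14 genes shown, chosen for the text with their values known.

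Of 31 inflammatory genes tested 20 rose and 5 fell, with a median of 2.11, and among them 6 of 7 feedback genes of NF-kB rose. TNFAIP2, a gene induced by tumour necrosis factor, went from 50.2 and 49.6 CPM to 196 and 199.8 at 24 h and 731 and 703 at 72 h (3.85 ± 0.12), and NFKBIA, the NF-kB inhibitor gene, from 27.8 and 30.1 to 205 and 195 CPM (2.79 ± 0.14). BIRC3, RELB and NFKB2 rose by 3.74 ± 0.49, 2.58 ± 0.15 and 2.30 ± 0.13, while TNFAIP3 was not called (-0.14 ± 0.18). Of the cytokines, OSM, the oncostatin M gene, rose from 1.01 and 0.881 to 36.7 and 36.4 CPM (5.27 ± 0.19) and IL1B from 4.31 and 4.55 to 25.2 and 25.6 CPM (2.52 ± 0.42), having been below DMSO at 24 h (1.101 and 1.96 CPM). FPR1, the formyl peptide receptor gene, rose by 4.35 ± 0.51 and the chemokine receptor gene CCR2 fell by 3.09 ± 0.14.

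Of 34 interferon response genes 21 rose and 7 fell, with a median of 1.46. IRF9, a DNA-binding factor of interferon signalling, measured 12.8 and 12.8 CPM in DMSO, 26.3 and 26.1 at 24 h and 69.02 and 68.4 at 72 h (2.42 ± 0.12). The antiviral effector genes IFIT1, IFIT3 and RSAD2 rose by 4.71 ± 0.50, 3.26 ± 0.21 and 4.02 ± 0.35 in MV-4-11 and fell in MOLM-13 (-3.70 ± 0.38, -3.72 ± 0.18 and -2.39 ± 0.25). OAS3, a sensor of double-stranded RNA, went from 10.1 and 10.7 to 45.6 and 42.7 CPM (2.09 ± 0.17) and differed from MOLM-13 by 4.29 ± 0.79 (4.90 without MOLM-13 72 h replicate 2). MOLM-13 had few OAS3 reads, 21 over the DMSO libraries and 6 at 72 h, while THP-1 had 618 and 899. Over the list, 25 of 34 had a higher effect than in MOLM-13 and 3 a lower one, where 20.8% and 15% of all genes did. Against THP-1 the counts were 19 and 3, where 19.9% and 16.5% did. In THP-1 itself 14 of the 34 members rose and 9 fell at 72 h, where 30.9% and 28% of all genes did. Not all members rose, as BST2, OAS2 and IFI44L fell (-2.11 ± 0.15, -1.05 ± 0.22 and -1.52 ± 0.25).

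Of 25 ERK feedback and immediate early genes tested 14 rose and 1 fell, and of 15 genes of FLT3 and STAT5 output 10 rose and 2 fell. EGR1, an early growth response factor, went from 7.61 and 7.78 to 141 and 134 CPM (4.16 ± 0.19). The ERK phosphatase genes DUSP4 and DUSP6 rose by 3.11 ± 0.13 and 1.96 ± 0.10, and the ETS factor ETV4 fell by 1.76 ± 0.14. GAB2, an adaptor of growth factor receptors, rose from 45.8 and 48.6 to 251 and 248 CPM (2.40 ± 0.08) and the kinase gene PIM2 by 1.98 ± 0.11. SOCS3, a feedback inhibitor of cytokine signalling, rose from 0.05596 and 0.4404 to 11.6 and 11.5 CPM (5.44 ± 0.29), with a value of 4.70 without DMSO replicate 1 and 7.53 without DMSO replicate 2.

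Genes of stress and serine synthesis did not move one way, as 10 of 24 ATF4-linked genes tested rose and 9 fell. DDIT3, the stress factor CHOP, rose from 12.1 and 13.3 to 73.1 and 74.4 CPM (2.54 ± 0.10), but ATF4 itself fell slightly (-0.41 ± 0.09), as did the serine synthesis gene PHGDH (-1.54 ± 0.10) and SHMT2 (-2.28 ± 0.09), which uses serine in mitochondria. CHAC1, which degrades glutathione, rose by 1.36 ± 0.43 in MV-4-11 and fell by 6.45 ± 0.60 in MOLM-13. Its rise was not called without DMSO replicate 2 (1.08, adjusted p = 0.12). The ATF4 element TGATGNAAN was in 5 of 21 promoters (23.8%) against 3.67% of all and 1.82% of tested, and the antioxidant element TGACNNNGC in 3 of 22 iron and NRF2 promoters (13.6%) against 13.6% of all and 15% of tested.

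Among complement and coagulation genes 11 of 27 tested rose and 1 fell. With the MV-4-11 libraries alone, 19 of the 27 passed the filter. C3, the central complement component, measured 12.8 and 13.1 CPM in DMSO, 17.5 and 18.8 at 24 h and 587 and 567 at 72 h (5.48 ± 0.11), so most of its rise came after 24 h. PLAUR, the urokinase receptor gene, and THBD, the thrombomodulin gene, rose by 3.72 ± 0.09 and 4.06 ± 0.10. Of 27 actin and cytoskeleton genes 16 rose and 8 fell. CAPG, an actin-capping protein gene, went from 46.8 and 48.4 to 1123 and 1135 CPM (4.57 ± 0.16), TPM4 rose by 2.64 ± 0.06 and MYL9 by 3.63 ± 0.21, while CORO1A, TAGLN2 and HCLS1, actin regulators of blood cells, fell (-1.44 ± 0.12, -2.16 ± 0.11 and -1.54 ± 0.08). In the matrix list 10 of 18 tested rose and 5 fell. TIMP1, an inhibitor of metalloproteases, rose from 6.72 and 5.77 to 128 and 138 CPM (4.42 ± 0.16), LGALS3, the macrophage lectin galectin 3, from 11.4 and 13.7 to 110.3 and 117 (3.18 ± 0.15) and the membrane protease gene MMP14 by 2.08 ± 0.07.

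Between 24 h and 72 h of BRM014, 3119 genes rose and 2830 fell (35.4% of those tested changed), a comparison that involves no DMSO library. The 8 largest rises by the rule for named genes were those of LCNL1, CHI3L1, PTGDS, FCN1, CD300A, C3, TGM3 and MEFV. CD300A, an inhibitory receptor gene, fell to 0.629 and 1.14 CPM at 24 h from 56.2 and 63.6 in DMSO and returned to 29.5 and 28.5 at 72 h, higher than at 24 h with an adjusted p of 4.6e-12. FCN1, the monocyte lectin ficolin 1, and MEFV, the gene of the inflammasome protein pyrin, were higher at 72 h than at 24 h by 5.32 ± 0.44 and 4.52 ± 0.14, and the transglutaminase gene TGM3 by 4.72 ± 0.54. Without 24 h replicate 2 the value for FCN1 was 6.14. The largest falls included PRG2 (-4.53 ± 0.15), SYT11, a vesicle trafficking gene (-4.33 ± 0.40), PLD4, a nuclease gene of endolysosomes (-2.72 ± 0.26), the growth factor gene HGF (-2.63 ± 0.28) and the adhesion gene CLSTN2 (-2.56 ± 0.13). PRTN3, the proteinase 3 gene of granules (-4.59 ± 0.97), PSMB3 (-4.25 ± 1.03) and TSTA3 (-2.57 ± 0.98) were also among the 8 largest falls, but each rested on 1 of the 24 h libraries. There PRTN3 measured 2.15 and 25.8 CPM, PSMB3 5.77 and 137 CPM and TSTA3 30.3 and 5.89 CPM. PRTN3 and PSMB3 were not called without 24 h replicate 2 (-1.86 and -0.62) and stood at -5.45 and -5.20 without replicate 1. TSTA3 was not called without either 72 h library or without 24 h replicate 1 (-0.97), and stood at -3.32 without replicate 2.

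**Figure D5:**
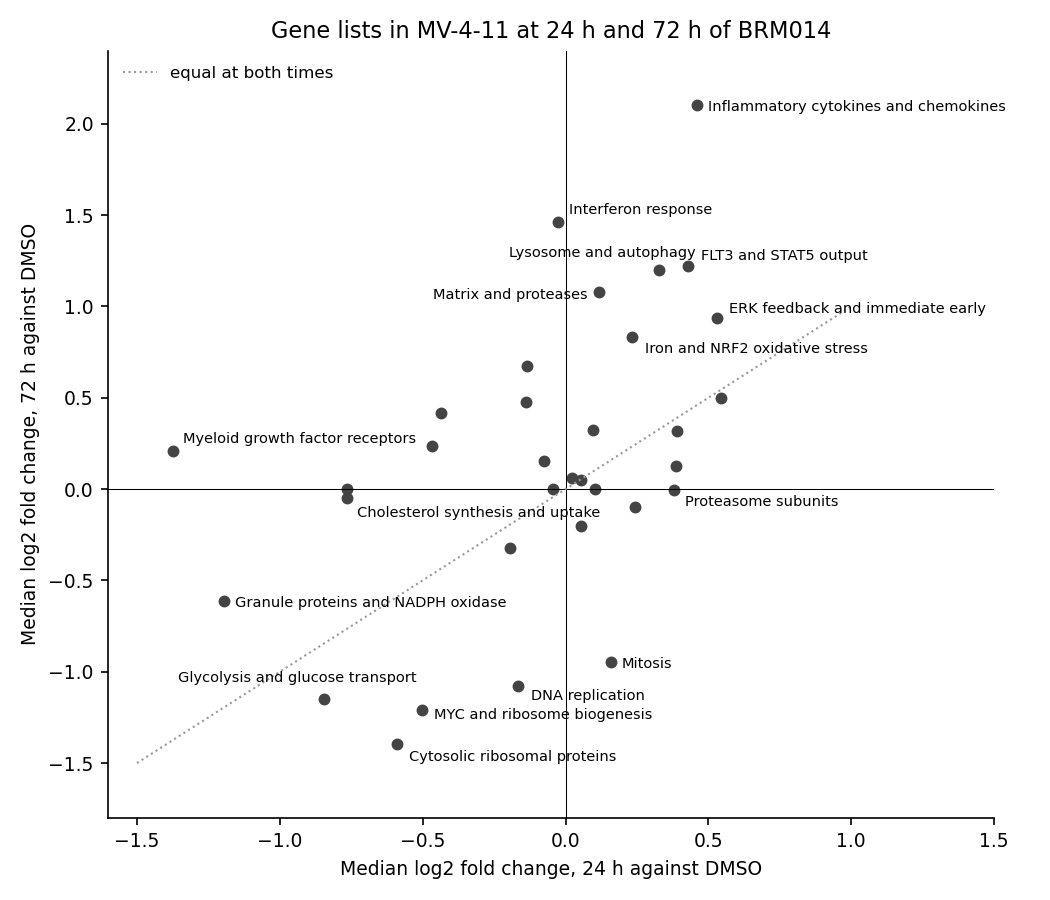
Median log2 fold change of each of 33 gene lists in MV-4-11 at 24 h (horizontal axis) and 72 h (vertical axis) of BRM014, both against the same DMSO libraries; the dotted line marks equal values. Mitosis lies at 0.16 at 24 h and -0.95 at 72 h, and the inflammatory list at 0.46 and 2.11.

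The counts of list members that changed between the times stand beside 18.6% of all genes that rose and 16.9% that fell. At 24 h against DMSO the shares of all genes were 23.6% higher and 22.4% lower. From 24 h to 72 h, interferon response genes rose in 25 of 34 cases and fell in 2, inflammatory genes in 18 of 31 (4 fell), complement genes in 14 of 27 (none fell) and integrin and adhesion genes in 14 of 22 (3 fell). Ribosomal protein genes fell in 33 of 34 cases and proteasome genes in 27 of 31 (1 rose), after 19 proteasome genes had been higher than DMSO at 24 h and none lower. SWI/SNF subunit genes fell in 12 of 27 and rose in 1. MHC class I genes, of which 9 of 16 were lower at 24 h, rose in 7 and fell in 1.

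The 72 h calls of MV-4-11 overlapped widely with those of the other lines, which have their own DMSO libraries and in which 59.7% (MOLM-13) and 58.9% (THP-1) of the genes tested were called. Of the genes that rose in MV-4-11, 3111 also rose in MOLM-13 (65.2% of the MV-4-11 list and 61.2% of the MOLM-13 list) and 2825 in THP-1 (59.2% and 54.5%). Of those that fell, 3100 also fell in MOLM-13 (70.7% and 62.7%) and 2836 in THP-1 (64.7% and 60.4%). Calls in the opposite direction numbered 455 of the rises and 303 of the falls against MOLM-13, and 512 and 387 against THP-1. The effect itself differed from MOLM-13 for 6009 genes (3497 higher and 2512 lower in MV-4-11) and from THP-1 for 6116 (3346 and 2770; with upper quartile scaling 2797 and 3319). Scaled by library size alone, the split against MOLM-13 was 2781 higher and 3188 lower, as the median difference over genes of at least 1 CPM moved from 0.07 to -0.06. The effect differed from both in the same direction for 1827 genes with a higher effect in MV-4-11 (10.9%) and 1161 with a lower one (6.91%).

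Genes with the largest higher effect in MV-4-11 than in both other lines included SLC16A6, a transporter gene of the monocarboxylate family, which rose from 6.66 and 10.8 to 159 and 151 CPM (4.14 ± 0.24) and fell in MOLM-13 (-2.28 ± 0.50) and THP-1 (-4.03 ± 0.67). DUSP2, an ERK phosphatase gene, rose by 1.95 ± 0.16 and fell elsewhere (-3.41 ± 0.19 and -2.87 ± 0.22), and GPR84, a receptor for medium-chain fatty acids, rose by 4.06 ± 0.32, with differences of 5.98 ± 0.44 and 5.33 ± 0.67. CEBPE fell less than in MOLM-13 (a difference of 4.91 ± 0.91), where it kept 1 read at 72 h, and had 382 reads in DMSO and 0 at 72 h in THP-1. In the other direction, ARG1, the arginase gene, fell from 32.8 and 35.96 to 0.453 and 0.304 CPM (-6.49 ± 0.47) and was not called in MOLM-13 (0.62 ± 0.55) or THP-1 (1.36 ± 0.59), with differences of -7.11 ± 0.72 and -7.86 ± 0.75. MAP4K1, a kinase gene of blood cells, fell by 6.81 ± 0.21 in MV-4-11, differing by -6.86 ± 0.51 and -4.09 ± 0.28, and PTPRS, a phosphatase gene, fell as well (-6.19 ± 0.36), with differences of -5.98 ± 1.16 and -8.84 ± 0.37. Low counts in the other lines made some of these differences depend on 1 library. Without MOLM-13 72 h replicate 1 the differences from MOLM-13 were 5.77 for SLC16A6, 4.03 for CEBPE, -6.19 for ARG1 and -6.14 for MAP4K1. Without MOLM-13 72 h replicate 2 they were 7.53 for SLC16A6, 7.16 for CEBPE and -5.16 for PTPRS. PTPRS stood at -10.97 and -5.06 without MOLM-13 DMSO replicates 1 and 2. Against THP-1, GPR84 ranged from 3.68 (without DMSO replicate 2) to 7.58 (without 72 h replicate 1), and stood at 4.55 without 72 h replicate 2 and 5.99 without DMSO replicate 1. ARG1 was at -7.26 without THP-1 72 h replicate 1 and -8.59 without THP-1 DMSO replicate 1.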

How the data were processed

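RNA-seq was measured in 22 libraries of 11 groups, and the 4 MV-4-11 libraries of 72 h BRM014 and DMSO were compared. The authors deposited whole-number counts per gene symbol and library. HISAT2 2.1.0, HTSeq and DESeq2 were used on the build hg38, per the submitters' processing notes, which give no roles. The gene annotation and the strand setting of the counting are not given in the sources used here, so overlapping and antisense genes cannot be told apart. Rows for reads without a gene were left out (13.1% to 14.3% of reads in the 4 libraries).

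Counts of all 22 libraries were fitted together in edgeR 4.0.16 (limma 3.58.1, R 4.3.3) with 1 coefficient per group, TMM scaling, a minimum count of 10 (filterByExpr) and the quasi-likelihood F test. Adjusted p-values are Benjamini-Hochberg over the 16794 genes tested, and a gene was called at an adjusted p under 0.05. The standard error of a log2 fold change is its size over the root of the F statistic. With few reads in a group this value is too small. CTTN, with 9 reads in DMSO, had 9.20 ± 0.20 but 8.48 and 11.15 without DMSO replicates 1 and 2. With 17187766 to 20873372 reads in genes per library, intervals (exact, Clopper-Pearson) and the floor of 3 counts cover counting error only. Differences between lines were tested as interaction contrasts, and 72 h was compared with 24 h in the same fit. The fit was tested on simulated data. Gene positions come from GENCODE release 29 (GRCh38), which matched 25728 of 28063 symbols, and promoters from RefSeq (GRCh38.p14).

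The members and the 37 gene lists (902 genes, 863 tested) were chosen with earlier results of these data known. The rule for named genes took called genes with groups that did not overlap and at least 10 CPM in the higher group: the 12 largest fold changes and 8 largest changes in CPM in each direction, up to 4 members of each list in each direction, a set of key genes whatever their values, the 8 largest changes in each direction between the times and the 8 largest differences from both other lines. A further 48 genes in the text, mostly members of the lists, were chosen after their values were seen. Replicate numbers are shared between groups, but the labels do not say that a number marks a shared culture. Alternatives were other scalings and filters on low counts, DESeq2 1.42.0, a replicate block, other sets of libraries, a stricter adjusted p of 0.01, a test against a 1.5-fold change and each library left out in turn.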

Additional observations from a re-analysis of the deposited data

Results flagged for a closer look

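The counts of genes whose 72 h effect differed between lines stand out because the difference itself was tested and passed: 6009 genes against MOLM-13 and 6116 against THP-1. For 16 genes the difference passed against both lines in the same direction and was among the 8 largest each way. The values given here are log2 differences, each the smaller of the pair. The effect was higher in MV-4-11 by 6.42 for SLC16A6, 5.77 for KLHDC7B, 5.33 for GPR84, 4.95 for CHI3L1, 4.91 for CEBPE, 4.82 for DUSP2, 4.13 for SEMA3A and 3.95 for METRN. It was lower for ARG1 (-7.11), PTPRS (-5.98), PPP1R1B (-5.59), MAP1A (-5.28), BPI (-5.10), TRPM6 (-4.58), TRIM71 (-4.16) and MAP4K1 (-4.09). TRPM6 reads did not drop in MV-4-11, with 436 in DMSO and 487 at 72 h. TRPM6 had 0 reads in the DMSO libraries of both other lines, so its fitted value depends on the prior count and is no bound. At 72 h it had 7 reads in MOLM-13 and 125 in THP-1. PTPRS had few reads in MOLM-13, 6 in DMSO and 7 at 72 h, against 906 and 5707 in THP-1.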

How the results depend on the processing

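MV-4-11 at 72 h against DMSO gave 9153 calls. The count stayed within 1.5 times of that under every alternative run except the test against a 1.5-fold change, which called 4755 genes (2535 higher and 2220 lower). With 1 library left out it ranged from 7872 to 8021. The other counts also stayed within 1.5 times. With 1 library left out they ranged from 4511 to 4688 for 72 h against 24 h (5949 with all libraries), from 5079 to 5485 for the difference from MOLM-13 (6009) and from 5153 to 5441 for that from THP-1 (6116). DESeq2 called 9009, 5943, 6033 and 6161 genes in the same order. A term for the replicate number (replicate block) called 8960, 5688, 5740 and 5825. Deviations from the group means correlated at 0.0014 to 0.023 between MV-4-11 libraries of the same number. Such low values cannot tell whether libraries of the same number shared a culture. Under the block, M6PR of the named genes lost its call (adjusted p = 0.058).

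Of the 212 named genes called, 210 were called with any 1 of the 4 libraries left out. The exceptions were CHAC1 and M6PR. Values that changed sign belonged to genes not called. GATA2 ranged from -0.054 to 0.26 and PSMB3 from -0.34 to 0.069 with 1 library left out (0.0062 for PSMB3 without 72 h replicate 1). MKI67 and HMGCS1, not called in the fit reported, were called lower by DESeq2 (adjusted p = 0.041 for each) and in 6 and 7 of the other settings. S100A9 (higher) and TNFAIP3 (lower) were called when fewer libraries entered the fit, and FLT3 was not called with no filter on low counts (adjusted p = 0.053). Against a 1.5-fold change, 14 named genes lost their call and 14 of 37 lists had over 1.5 times fewer calls. With 2 libraries per group, the spread of a gene was borrowed from all 11 groups, and genes of a few reads have folds that 1 library decides.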
